A study of Sus scrofa with 2 samples.

Results

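Solute carriers (SLC) form a large set of membrane transport protein families, numbered by substrate and sequence, and their probes were taken as every probe of the porcine EMPV1 array whose annotated gene symbol starts with SLC followed by a digit. These were 348 probes for 245 symbols, out of 43794 probes with deposited values, of which 18121 carried 1 of 11938 symbols. The study states that its probe count includes controls, and any among these were not set apart here. EMPV1 is an Agilent array of 60-base oligonucleotides read in 2 colours. RNA came from 2 single cumulus-oocyte complexes of Large White pigs, named COC7 and COC4 in the labels, which were aspirated from mature follicles of slaughterhouse gilt ovaries. The sources used here give no treatment, age or other difference between the complexes. Both RNAs were hybridized to each of 2 arrays, with COC7 in the Cy5 channel of array 1 and in the Cy3 channel of array 2. Each complex is thus 1 sample and both arrays are technical repeats of the same pair of RNAs, so nothing was measured about the spread among complexes and no test was possible.

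A cumulus-oocyte complex is an oocyte enclosed by its somatic cumulus cells. The oocyte takes up little glucose by itself, and cumulus cells pass it pyruvate and amino acids through gap junctions, so carriers of sugars, amino acids and monocarboxylates in cumulus cells are part of how the oocyte is fed. Most carriers of the SLC25 family lie in the inner mitochondrial membrane and move nucleotides, phosphate and metabolites between the matrix and the cytosol. Carriers of the SLC30 family move zinc out of the cytosol, and those of the SLC39 family move it in.

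All values below are log2 ratios of COC7 to COC4, with the sign of array 2 turned. A positive value means more signal from COC7 if the deposited ratio is Cy5 over Cy3. The channel order of the labels gave that direction; if it runs the other way, every sign in the text turns together. A mean is the mean of both arrays, and ± is the distance from that mean to either array, which is technical error and holds the dye effect too. The signals behind the ratios were not used here, so the values say nothing about how abundant a transcript was.

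The solute carriers as a whole had a median log2 ratio near 0, at 0.0039 against 0.0031 over all probes. The study normalized its data within and across arrays, so a median near 0 does not show equal amounts of carrier transcripts. Of the 348 probes, 186 lay above 0 and 162 below, a share above 0 of 53.4% against 50.9% of all probes. A mean within 0.1 of 0 was found for 198 SLC probes (56.9%, against 55.5% of all probes). The spread of the SLC probes, an SD of 0.167, was below the SD of 0.188 over all probes. By symbol, 136 of 245 lay above 0, with a median of 0.011. Both medians were far smaller than the SD of the probes.

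The arrays seldom gave a carrier the same direction. The sign was the same on both arrays for 123 SLC probes (35.3%), against 37.1% of all probes, and these split into 61 above 0 and 62 below. Across the 348 probes the correlation of array 1 with turned array 2 was -0.307 by Pearson's method and -0.390 by Spearman's, against -0.268 and -0.326 over all probes. These are descriptions across probes of the same arrays. The dye part of a ratio, which has the size of ± above, reached 1.5-fold in 9 SLC probes, against 2.8% of all probes. It was larger than the mean for 225 of the 348 SLC probes. Its SD was 0.230, against 0.167 for the means of the SLC probes. Over all probes these SDs were 0.246 and 0.188.

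**Figure D1:**
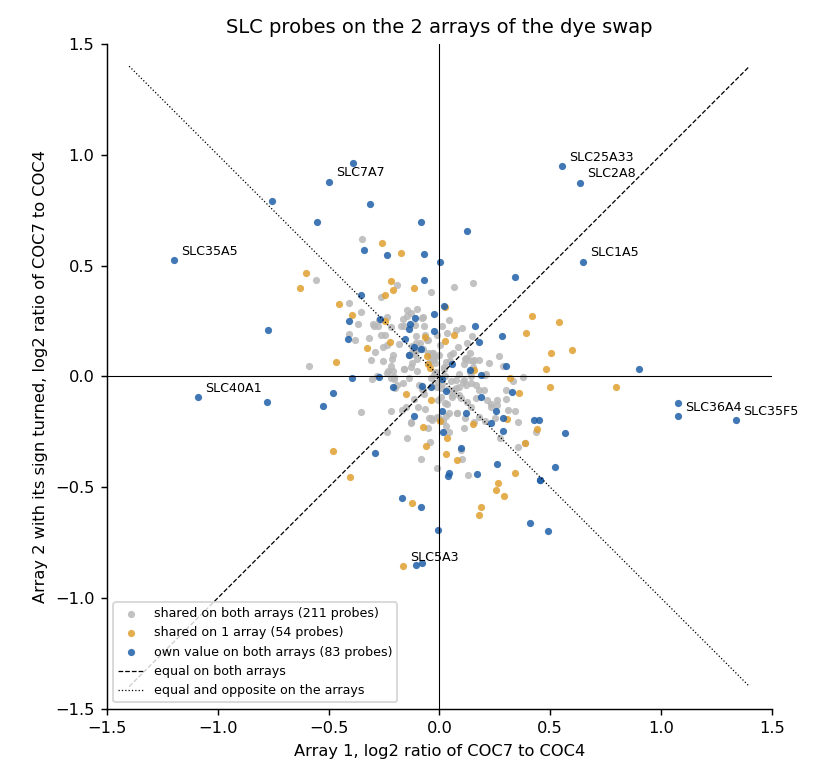
Each point is 1 SLC probe, with its log2 ratio of COC7 to COC4 on array 1 on the x axis and on array 2, sign turned, on the y axis; colour shows on how many arrays its deposited value is shared with another probe. Most of the 348 points lie in the quadrants where the arrays differ in sign, and SLC2A8, SLC25A33 and SLC1A5 stand apart in the quadrant where both arrays are positive.

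A mean of 1.5-fold or more was reached by 3 SLC probes (0.862%), against 1.7% of all probes and 2.17% of named probes. A mean of 2-fold was reached by 0, against 0.174% of all probes. Both probes on the COC7 side had the same sign on each array. SLC25A33, the mitochondrial carrier of pyrimidine nucleotides, measured 0.55 on array 1 and 0.95 on array 2. Its mean was 0.75 ± 0.20 or 1.68-fold, and 287 of all probes lay as far from 0. One of 3 probes for SLC2A8, the intracellular glucose transporter GLUT8, measured 0.64 and 0.87, a mean of 0.75 ± 0.12 or 1.69-fold, and 277 of all probes lay as far. The probe on the COC4 side belonged to SLC40A1, ferroportin, which exports iron from cells. It measured -1.09 on array 1 against -0.093 on array 2, which averaged -0.59 ± 0.50, so its position rested on array 1. Just outside the threshold lay SLC1A5, at 1.497-fold. When the probes of a symbol were averaged, SLC25A33 alone was left past 1.5-fold, since the other SLC2A8 and SLC40A1 probes lay closer to 0.

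Agreement of the arrays on a sizeable ratio was a stricter description. The same sign with 0.25 or more on each array was found for 8 SLC probes (2.30%), against 3.73% of all probes. The 5 on the COC7 side were SLC25A33, the SLC2A8 probe, SLC1A5, SLC16A10 and SLC15A3, and the 3 on the COC4 side were SLC25A12, SLC30A7 and SLC35B3. SLC15A3, a lysosomal carrier of histidine and short peptides, measured 0.42 and 0.27. SLC35B3, a Golgi carrier of the sulfate donor PAPS, measured -0.40 and -0.45. The other 6 are described with their groups below.

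Many deposited ratios were identical to the last digit between different probes. Array 1 held 20009 distinct values for the 43794 probes and array 2 held 19952, and 1 value was carried by up to 28 probes on array 1 and 29 on array 2. A probe is said here to have its own values when no other probe shared its value on either array. This held for 11731 of all probes (26.8%), for 30.3% of named probes and for 83 of the 348 SLC probes (23.9%), which came from 67 symbols, while 211 SLC probes shared their value on both arrays. Among ribosomal protein probes, a set of transcripts present in every cell, 66 of 77 had their own values. Probes with their own values were the more widely spread, with an SD of the contrast of 0.261 against 0.0949 for SLC probes shared on both arrays, and of 0.293 against 0.104 for all probes. All 3 SLC probes past 1.5-fold had their own values, which is 3 of 83 (3.61%) against 5.82% of all probes of that kind. Of the 38 SLC probes with a mean of 0.25 or more in either direction, 24 had their own values, and none of the 211 shared on both arrays passed 0.29. The share with the same sign on both arrays was 37.3% of the 83, against 40.9% of all probes with their own values, and 48 of the 83 lay above 0, against 52.8%. Among the 8 SLC probes with the same sign and 0.25 or more on each array, SLC25A12, SLC15A3 and SLC35B3 shared their value on 1 array. The others had their own values. Why values repeat was not tested.

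**Figure D2:**
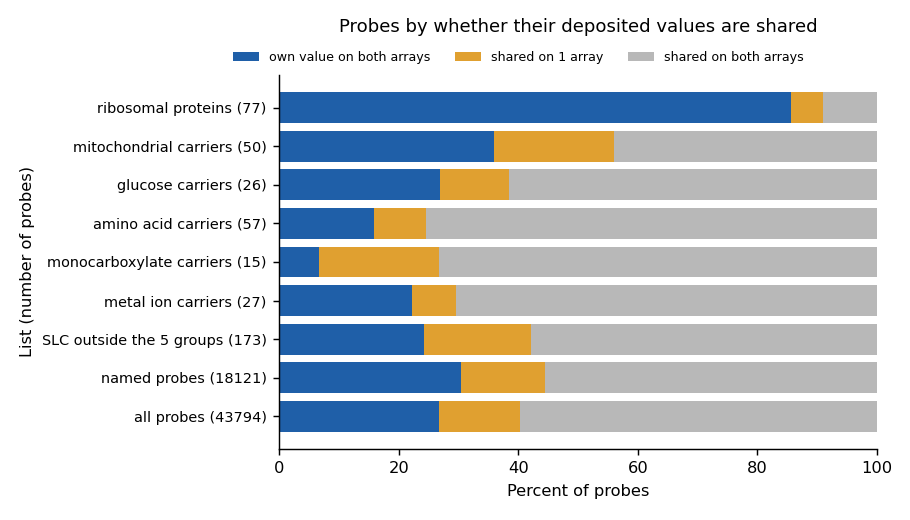
Bars give the percent of probes in each list with their own value on both arrays, a value shared on 1 array, or values shared on both arrays, with the number of probes in parentheses. Ribosomal protein probes are mostly blue (85.7%), mitochondrial carriers are at 36%, and the other 4 groups are between 6.67% and 26.9%.

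The 5 groups of carriers compared here differed little in their medians. The median was 0.000063 for 50 mitochondrial carrier probes, 0.014 for 26 probes of the glucose families SLC2 and SLC5, and 0.017 for 57 probes of the amino acid families SLC1, SLC3, SLC6, SLC7 and SLC38. It was -0.0097 for 15 monocarboxylate probes of SLC16 and 0.038 for 27 metal ion probes of SLC30 and SLC39. Each of these medians was smaller than the spread of its own probes, whose SDs were 0.188, 0.233, 0.138, 0.123 and 0.129 in the same order. None of the 5 medians kept its sign on both arrays taken alone. They were 0.010 and -0.045 for mitochondrial carriers, 0.033 and -0.032 for glucose carriers, and -0.022 and 0.046 for amino acid carriers. Monocarboxylate carriers had positive medians on each array, 0.038 and 0.041, and metal ion carriers had negative ones, -0.0068 and -0.021, both opposite in sign to the median of the probe means. The share of probes with their own values, 26.8% over all probes, was 36% for mitochondrial, 26.9% for glucose, 22.2% for metal ion, 15.8% for amino acid and 6.67% (1 of 15) for monocarboxylate carriers, so the glucose share was at the background. These differences between groups were not tested.

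**Figure D3:**
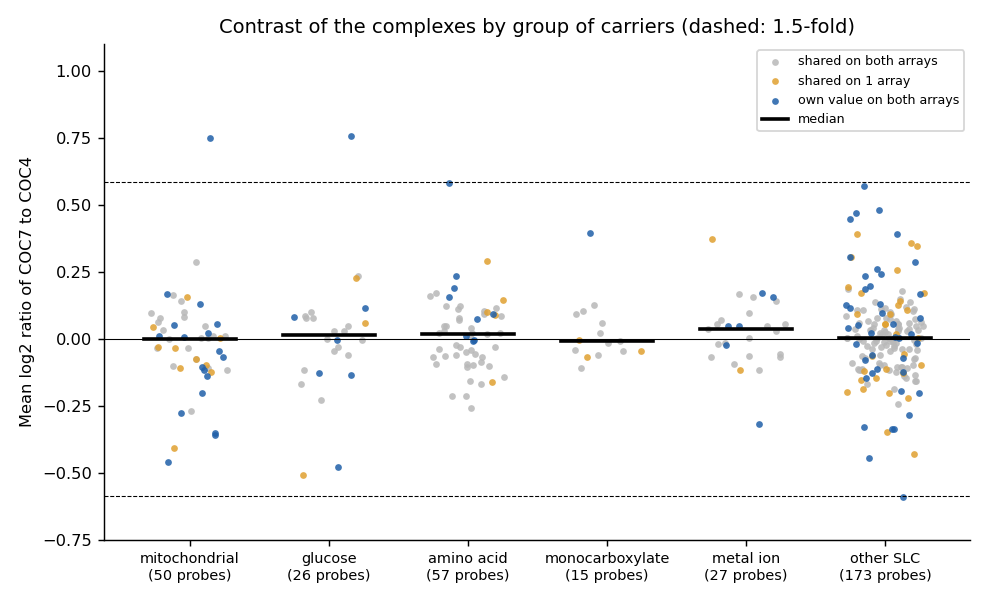
Each point is the mean log2 ratio of COC7 to COC4 of 1 probe, by group of carriers, with the median as a bar, dashed lines at 1.5-fold, and the colours of shared values as in the plot of both arrays. The 6 medians lie within 0.04 of 0, and 24 of the 38 points at 0.25 or more from 0 are probes with their own values.

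The mitochondrial carriers were taken as the whole SLC25 family, most of which exchanges solutes across the inner membrane. Of their 50 probes (30 symbols), 25 lay above 0 and 25 below, and 18 kept their sign. They include 5 probes for SLC25A17, a peroxisomal carrier, with means from -0.11 to 0.052. Beside SLC25A33, the carriers of the phosphorylation of ADP had values of their own on every probe. SLC25A3, which imports the phosphate needed to make ATP, had 3 probes, all below 0. The first measured -0.08 and -0.84, a mean of -0.46 ± 0.38, and the second measured -0.17 and -0.55, a mean of -0.36 ± 0.19. The third measured 0.49 and -0.70, a mean of -0.10 ± 0.59, so the 3 probes shared a negative value on array 2 and differed in sign on array 1. SLC25A5, the ADP/ATP carrier ANT2 of most dividing cells, measured -0.48 and -0.07, a mean of -0.28 ± 0.20. SLC25A4, the muscle and heart form ANT1, had 2 probes at -0.04 and 0.0093, and SLC25A31, a form known from germ cells, measured 0.02 and -0.25, a mean of -0.12. The ADP/ATP carriers therefore lay between near 0 and the COC4 side, with no probe reaching 1.5-fold.

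SLC25A12, a mitochondrial exchanger of aspartate and glutamate that takes part in the malate-aspartate shuttle, had both arrays on the COC4 side. It measured -0.48 and -0.33, a mean of -0.41 ± 0.07 or 1.33-fold, and shared its value with another probe on 1 array. Its close relative SLC25A13 (citrin) measured -0.02 and 0.28, and SLC25A11, the oxoglutarate carrier of the same shuttle, measured 0.02 and 0.32, a mean of 0.17. The shuttle's 3 carriers thus did not share a direction. One of 4 probes for SLC25A32, which carries folate into mitochondria, measured -0.01 and -0.69, while the other 3 had means between -0.11 and 0.0064. The 5 probes for SLC25A1, the citrate carrier, had means from -0.20 to 0.0095, and the symbol lay at -0.06 ± 0.06. SLC25A20, which imports acylcarnitines for fatty acid oxidation, lay at 0.00081 ± 0.16 over 2 probes.

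The 18 mitochondrial probes with their own values had a median of -0.055, with 8 above 0 and 10 below, against a median of 0.015 over all probes of that kind. Of these 18, 8 kept their sign, 2 above 0 and 6 below, against 2468 above and 2327 below among all probes of that kind; with 8 probes, no lean of the group is read from this split. The 6 came from SLC25A3 (2 probes), SLC25A4, SLC25A5, SLC25A26 and SLC25A32. Of the ribosomal protein probes with their own values 62 of 66 lay below 0, with a median of -0.41, and of the measured cumulus and granulosa markers 15 of 17 did, with a median of -0.40 (array 1 -0.47, array 2 -0.17). Of 10 measured markers of blood, theca, stroma and vessel 7 lay below 0, with a median of -0.037 (array 1 -0.11, array 2 -0.092), and the 3 that kept their sign were all below 0: RGS5, a pericyte gene, at -3.04 and -1.22, DCN at -0.28 and -0.51, and CLDN5 at -0.48 and -0.13. Of 12 measured oocyte markers 8 lay above 0, with a median of 0.054 (array 1 -0.095, array 2 0.44). Only 3 of the 12 kept their sign, all above 0. Counted by probe and not by gene, 52.0% of named probes lay above 0 and 38.1% kept their sign. In whole complexes, fewer cells of a type and less RNA per cell cannot be told apart, and the part of these cell types in the carriers' values was not tested.

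Among the glucose carriers, 13 of 26 probes (20 symbols) lay above 0 and 13 below, and 9 kept their sign. SLC2A1, the facilitative transporter GLUT1 of most cells, had 2 probes with their own values. The first measured -0.11 and -0.85, a mean of -0.48 ± 0.37, and the second measured 0.45 and -0.47, a mean of -0.0060 ± 0.46. As for SLC25A3, both probes were negative on array 2 and differed on array 1. SLC2A4, the insulin-responsive transporter GLUT4, measured 0.50 and -0.05, a mean of 0.23 ± 0.27. The other 2 SLC2A8 probes measured 0.06 and 0.40, and -0.10 and 0.31, and shared their values with other probes on both arrays. All 3 SLC2A8 probes were positive on average and on array 2, and their mean was 0.36 ± 0.16. SLC2A12 measured -0.34 and 0.57, and SLC2A13, which carries myo-inositol with protons, measured 0.17 and -0.44.

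The sodium-driven SLC5 family reached 1 sizeable value. SLC5A3, which takes up the osmolyte myo-inositol and not glucose, measured -0.16 and -0.86, a mean of -0.51 ± 0.35 or 1.42-fold toward COC4. The SLC5A3 probe shared its value with another probe on 1 array. SLC5A1, the sodium-glucose cotransporter SGLT1, had 3 probes, all below 0, with means of -0.044, -0.23 and -0.030, and the symbol lay at -0.11 on array 1 and -0.09 on array 2. SLC5A6, which carries vitamins, measured 0.41 and -0.66. When carriers of substrates other than hexoses were left out, the median of the remaining 18 glucose probes was 0.053.

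Among the amino acid carriers, 31 of 57 probes (37 symbols) lay above 0 and 26 below, and 19 kept their sign. Counted by symbol, they include SLC7A6OS, which is no carrier, and the creatine carrier SLC6A8. When members that do not carry amino acids were left out, the median of the remaining 44 probes was 0.016. The member farthest from 0 was SLC1A5 (ASCT2), which exchanges glutamine and other neutral amino acids. It measured 0.65 and 0.52, a mean of 0.58 ± 0.07, with both arrays close to each other and a value of its own on each. SLC1A4, the related alanine and serine carrier ASCT1, measured -0.02 and 0.20. SLC1A7, a glutamate transporter known from the retina, measured -0.01 and -0.41, and SLC6A5, the glycine transporter of inhibitory nerve endings, measured -0.15 and -0.28; both shared their values with other probes on each array. SLC7A7, the light chain of a dibasic amino acid exchanger, gave opposite readings of -0.50 and 0.88, a mean of 0.19 ± 0.69. SLC7A8, the neutral amino acid exchanger LAT2, did the same on its 2 probes, with -0.55 and 0.70, and -0.27 and 0.26. For these 2 genes of SLC7 the sign followed the dye on every probe.

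The SLC38 family of sodium-coupled neutral amino acid transporters had 8 of 14 probes above 0. SLC38A6 had 5 probes, 4 of them above 0, with means of -0.14, 0.10, 0.23, 0.29 and 0.12. SLC38A9, which senses arginine at the lysosome, had 1 probe at 0.56 and -0.26 and another at -0.37 and 0.24. Of 19 SLC6 probes, a family that includes many neuronal transmitter transporters, 1 had its own values. The small families SLC15 and SLC36 carry peptides and amino acids with protons. Of their 8 probes 7 lay above 0, against 50.9% of all probes, with a median of 0.13. The sign was kept by 6, against 37.1% of all probes. Only 2 of the 8 had their own values and 5 shared them on both arrays, so no lean of these families is read from the counts. The peptide transporters SLC15A1 and SLC15A2 had means of 0.12 and 0.15, while SLC36A4 measured 1.08 and -0.18.

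Among the monocarboxylate carriers, which move lactate, pyruvate and related acids, 6 of 15 probes (11 symbols) lay above 0 and 9 below. Only 3 kept their sign, all above 0. SLC16A10, which carries aromatic amino acids and not lactate, measured 0.34 and 0.45, a mean of 0.39 ± 0.05 or 1.31-fold. It was the sole probe of the family with values of its own. SLC16A1, the lactate and pyruvate carrier MCT1, measured 0.34 and -0.16, a mean of 0.09 ± 0.25. The 3 probes for SLC16A7, the high-affinity carrier MCT2, had means of -0.067, -0.010 and 0.13, and the symbol lay at 0.02 ± 0.14. SLC16A9 measured 0.12 and 0.08, and the 2 SLC16A13 probes had means of -0.044 and -0.11. By symbol SLC16A7 measured -0.13 and 0.16. SLC16A1 and SLC16A7 thus had opposite signs on the arrays, and no direction is read for either. The SLC16A1 probe shared its values with other probes on both arrays, and SLC16A3 is not among the symbols used here.

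Among the metal ion carriers, 16 of 27 probes (18 symbols) lay above 0 and 11 below, and 11 kept their sign. The importers of SLC39 had 13 of 19 probes above 0 (median 0.049), and the exporters of SLC30 had 3 of 8 (median -0.019). Of all probes, 50.9% lay above 0. Of the 19 SLC39 probes, 14 shared their values on both arrays and 7 were for SLC39A5. No contrast of importers with exporters is read from these counts. SLC30A7, which loads zinc into the Golgi, measured -0.29 and -0.35, a mean of -0.32 ± 0.03 or 1.25-fold. SLC30A1, the zinc exporter of the cell surface, measured -0.24 and 0.55, a mean of 0.16 ± 0.39. The importer SLC39A1 measured 0.29 and 0.05, a mean of 0.17 ± 0.12, and SLC39A8, which also carries manganese, measured -0.15 and -0.08. SLC39A5 had 7 probes, with means from -0.068 to 0.37, of which 5 were above 0.

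**Figure D4:**
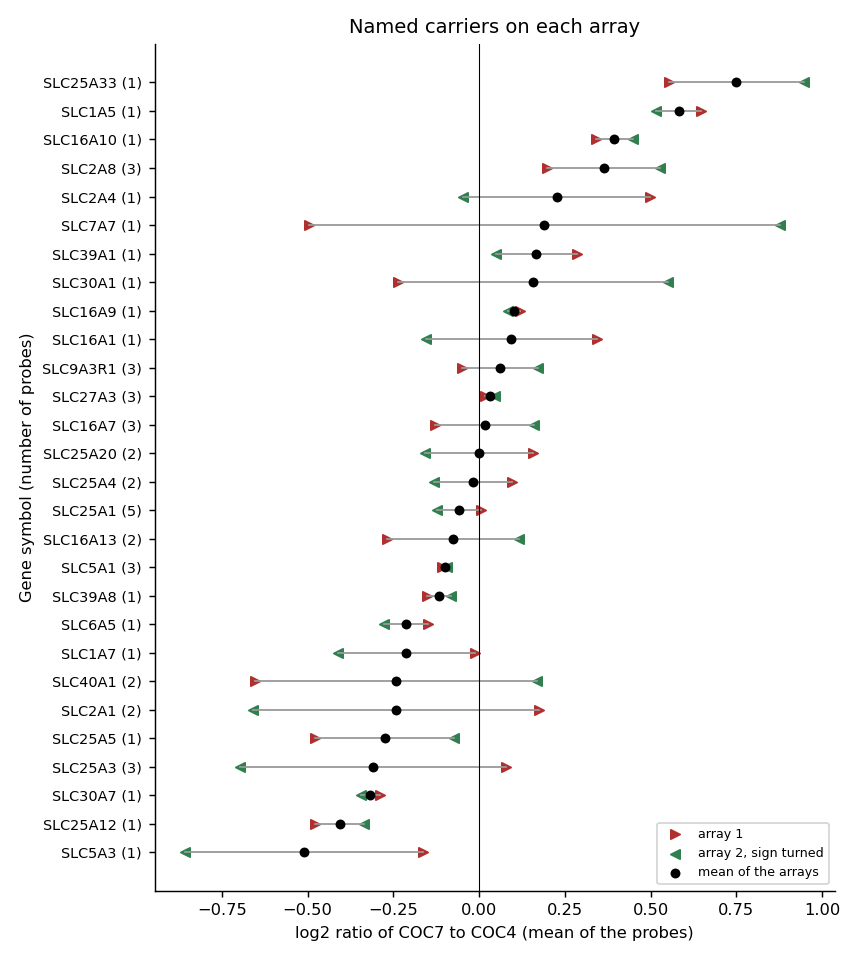
For each of 28 named carriers, triangles give the log2 ratio of COC7 to COC4 on array 1 and on array 2 (sign turned), averaged over the probes given in parentheses, and the black point gives their mean. SLC25A33, SLC1A5, SLC16A10 and SLC2A8 have both arrays to the right of 0, SLC5A3, SLC25A12 and SLC30A7 have both to the left, and the triangles of SLC7A7 lie on opposite sides, at -0.50 and 0.88.

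The 173 probes outside the 5 groups (129 symbols) had a median of 0.0032 and 1 member past 1.5-fold, the SLC40A1 probe. Its second probe measured -0.22 and 0.43, so the symbol lay at -0.24 ± 0.41. The copper transporter SLC31A2 measured -0.77 and 0.21. The families SLC35 and SLC37 include carriers of nucleotide sugars and sugar phosphates into the Golgi and endoplasmic reticulum, but not every member carries these. Their 31 probes had a wide dye part, with an SD of 0.331 against 0.230 over all SLC probes. SLC35A5 measured -1.20 and 0.52, and SLC35F5 measured 1.34 and -0.20 on 1 of 2 probes. SLC35B2, the other Golgi carrier of PAPS, measured -0.76 and 0.79 on one probe and 1.08 and -0.12 on the other. None of these 4 probes kept its sign.

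The 37 probes of organic ion, bile acid and carboxylate carriers (SLC10, SLC13, SLC17 and SLC22) had 26 above 0 and a median of 0.055. That is 70.3% above 0 against 50.9% of all probes, and 14 kept their sign (37.8% against 37.1%). Only 5 of the 37 had their own values. SLC22A23 measured 0.54 and 0.25, a mean of 0.39. The 50 probes of inorganic ion exchangers and cotransporters had 23 above 0 and a median of -0.0098. Within them SLC4A4, a sodium bicarbonate cotransporter, measured -0.78 and -0.12, a mean of -0.45 ± 0.33, and SLC12A2, the sodium, potassium and chloride cotransporter NKCC1, measured -0.53 and -0.13, a mean of -0.33 ± 0.20. SLC26A11, a sulfate transporter, lay on the other side on both of its probes, at 0.90 and 0.03, and at 0.18 and 0.16. SLC9A3R1, which is a scaffold protein (NHERF1) and no carrier, lay at 0.06 ± 0.11 over 3 probes. SLC9A3R2 and SLC4A1AP, counted here by symbol, are no carriers either. The 33 probes of vitamin, nucleoside, lipid, choline and urea carriers had a median of -0.0098. Of 8 probes of the choline transporter-like family SLC44, 7 lay below 0 (median -0.12), leaving 12.5% above 0 against 50.9% of all probes. On both arrays 3 of them lay below 0, a same-sign share of 37.5% against 37.1% of all probes. Only 1 of the 8 had its own values, and 4 were for SLC44A4. One of those SLC44 probes, annotated as SLC44A4, carries an accession that the RefSeq table gives to DPM1. The 4 vesicular transmitter probes of SLC18 and SLC32 had a median of 0.035, and the 4 probes of SLC45 had -0.012; neither family had a probe with values of its own.

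Several probes of a symbol may lie on different parts of a transcript. The array also holds probes for splice variants and alternative 3' ends, so probes of a symbol need not test the same transcript. The kind of each probe was not used here. There were 58 SLC symbols with several probes (161 probes), and 187 had 1. The SD of probes within a symbol was 0.150, against 0.171 over these 161 probes, so probes of the same carrier differed nearly as much as probes of different carriers. Over all symbols with several probes these SDs were 0.157 and 0.208. The probes of a symbol all lay on 1 side of 0 for 22 of the 58 (37.9%), against 46% of all such symbols. The widest ranges among symbols with 3 or more probes were those of SLC2A8, from 0.10 to 0.75, and of SLC27A3, a fatty acid transport protein, from -0.15 to 0.36.

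**Figure D5:**
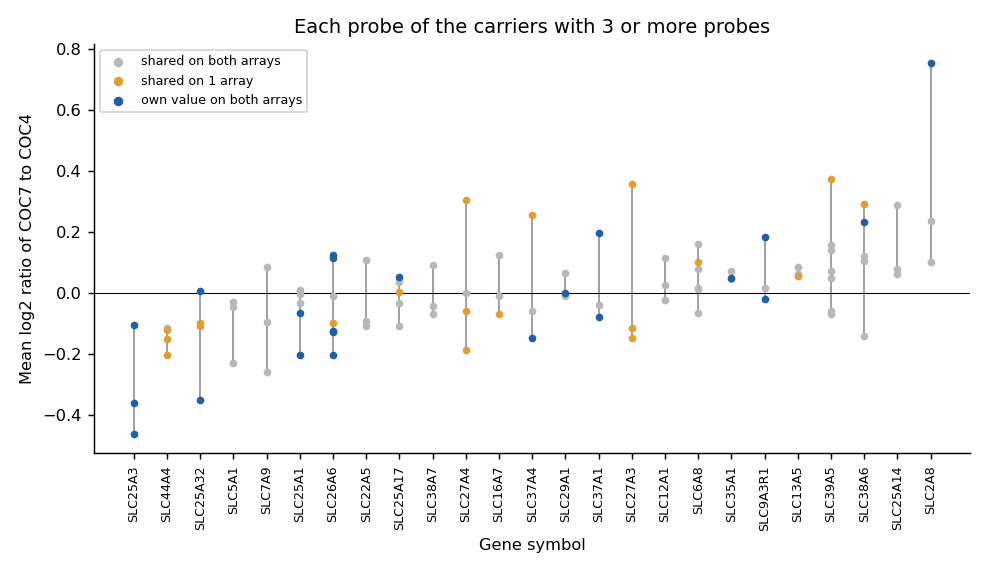
Each point is the mean log2 ratio of COC7 to COC4 of 1 probe of the 25 SLC symbols with 3 or more probes, ordered by the mean of the symbol, with the range as a line and the colours of shared values as in the plot of both arrays. The probes of SLC25A3 lie below 0, those of SLC2A8 lie above 0 with 1 probe far from the other two, and most symbols straddle 0.

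Genes that work with these carriers were set beside them. They were 35 measured genes of transport partners, regulators, other channels and the organic anion transporters named SLCO. Of these, 14 lay above 0 and 21 below, with a median of -0.040, and 16 kept their sign, 11 of them below 0. Of named probes, counted by probe and not by gene, 52.0% lay above 0. The sign was kept by 38.1% of named probes, 3602 above 0 and 3309 below. VDAC2, a pore of the outer mitochondrial membrane, was the 1 member past 1.5-fold, with -0.22 and -1.06, a mean of -0.64 ± 0.42, and VDAC1 measured -0.20 and -0.31. BRP44L, the mitochondrial pyruvate carrier subunit now called MPC1, measured 0.14 and 0.65, a mean of 0.40 ± 0.26. TXNIP, which lowers glucose uptake through GLUT1, measured -0.74 and -0.13, a mean of -0.43 ± 0.30. GJA1, the gap junction protein connexin 43 of cumulus cells, lay at -0.08 on average, with -0.088 and -0.078. The outer pores and the inner membrane carriers of phosphate and ADP/ATP thus had means on the COC4 side or near 0. MPC1, SLC25A33 (0.75) and UCP3 (0.16) had means on the COC7 side. No lean of mitochondrial transport is read from these members.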

How the data were processed

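The authors amplified 5 ng of total RNA per complex in 2 rounds, labelled it by a chemical linkage system, scanned the arrays, subtracted background and flagged spots in GenePix Pro 6.0, and analysed normalized values with limma in FlexArray 1.6. The deposited values are log2 ratios of both channels. The log2 scale was read from the 2-fold lines of the study's plot of these data, and the normalization method is not given in the sources used here. A second deposited table has 2 columns that match no label and was not used. Channel signals and detection were not analysed, so precision is limited by the number of arrays.

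Array 2 was multiplied by -1 and averaged with array 1, with Python 3.11.15 and pandas 2.3.3, and the steps were tested on simulated data. Probes were named by the platform annotation. An accession was given for 75 SLC probes, and 47 were found in RefSeq (Sscrofa11.1), 1 with another symbol; 4 probes not named SLC carry the accession of an SLC gene there and were left out. SLC2A3, SLC38A2, SLC38A3, SLC7A5, SLC3A2, SLC6A9, SLC16A3, SLC25A6 and SLC11A2 were on the list to be named but are not among the symbols used here. Lists were described by counts and medians beside the same over all probes, with no test. The members, lists and rules were chosen with earlier results of these data known. Named carriers were the 4 symbols farthest from 0 in each of the 5 groups, probes past 1.5-fold with the same sign, well known carriers, and the symbols with the widest range of probes; any other was chosen after its values were seen, as was the count of shared values.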

Additional observations from a re-analysis of the deposited data

How the results depend on the processing

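No paired analysis was possible because each complex was 1 sample and both arrays held both complexes. Use of the second deposited table was not run, since its columns matched no label. Centring each array on its median, and setting the arrays to equal SD, left the count past 1.5-fold at 3 and 2. Array 1 alone gave medians of -0.014 for all SLC probes, -0.022 for amino acid, 0.038 for monocarboxylate and -0.0068 for metal ion carriers, and 16 probes past 1.5-fold. Array 2 alone gave -0.045 for mitochondrial, -0.032 for glucose, 0.041 for monocarboxylate and -0.021 for metal ion carriers, and 20 probes past 1.5-fold. With 1 value per symbol the count was 1 and the monocarboxylate median -0.00084. The count was 0 at 2-fold and 1 at 1.5-fold on each array. The monocarboxylate median was -0.013 with arrays at equal SD and -0.0035 with lactate and pyruvate carriers only, and the glucose median was 0.053 with hexose carriers only.

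Alternatives below were chosen after seeing the data. Using only probes with their own values, the medians were 0.020 for all SLC probes, -0.055 for mitochondrial, 0.091 for amino acid, 0.39 for monocarboxylate (1 probe) and 0.048 for metal ion carriers, and the same 3 probes passed 1.5-fold. After removal of a running median over neighbouring probe numbers, the monocarboxylate median was -0.0045 and the metal ion median -0.0063, 27 of 28 named carriers and 325 of 348 SLC probes kept their sign, and no named carrier moved by more than 0.070. The cause of these shifts was not tested.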
